A study of Rattus norvegicus with 6 samples.

Results

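The genes described here are 10 antioxidant enzymes of the rat, the superoxide dismutases *Sod1* and *Sod2*, catalase (*Cat*), the glutathione peroxidases *Gpx1*, *Gpx3* and *Gpx4*, the peroxiredoxin *Prdx1*, thioredoxin (*Txn1*), thioredoxin reductase (*Txnrd1*) and the quinone reductase *Nqo1*. Members were matched by the gene name that the array files give. All 10 were on the array, out of 36174 gene names, and they carried 14 of the 45598 probes tested. The question was whether these enzymes differed between replicating β-cells and quiescent β-cells of the same islets.

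Islets of young adult male Wistar rats were cultured overnight with EdU, a thymidine analogue that is built into newly made DNA. They were then dispersed, fixed with paraformaldehyde and sorted for large, granular, Newport Green-high cells, Newport Green being a zinc dye taken up by insulin granules. The replicating group held the EdU+ cells and the quiescent group the EdU- cells, with no other treatment or allele differing between them. Each of the 3 islet preparations pooled 4 rats and gave 1 replicating and 1 quiescent sample, so the 6 arrays form 3 pairs. RNA was amplified across the whole transcriptome, labelled with Cy3 and hybridised to a 1-colour Agilent array. Values are deposited normalized log2 signals, and a ratio is the log2 signal of replicating minus quiescent cells of 1 preparation.

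Superoxide dismutases turn superoxide into hydrogen peroxide, in the cytosol (*Sod1*) or in mitochondria (*Sod2*). Hydrogen peroxide is then removed by catalase, by glutathione peroxidases, which spend glutathione, or by peroxiredoxins, which are recharged by thioredoxin, and thioredoxin in turn by thioredoxin reductase and NADPH. Rodent β-cells are known for low catalase and low glutathione peroxidase activity. The transcription factor NRF2, encoded by *Nfe2l2*, induces *Nqo1*, *Txnrd1* and *Prdx1* through the antioxidant response element in many cell types.

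The arrays differed in quality. The quiescent array of preparation 2 had 1583 spots marked as outliers against 252 to 299 on the others, and its Pearson's r with the other arrays over all probes was 0.654 to 0.830. The quiescent array of preparation 1 correlated at 0.867 to 0.887 with the remaining 4, which correlated with each other at 0.943 to 0.986. From 80.8% to 98.4% of probes were well above background, and all 14 member probes were so on every array. The β-cell markers *Ins1* (15.92 to 17.20 on the 6 arrays) and *Ins2* (15.50 to 16.87) were bright in both groups. Some markers of other cells were higher in replicating cells by the unadjusted criterion explained below, which took 4.44% of all probes as higher and 4.18% as lower, and none passed the adjusted p in limma. These were 5 of 16 fibroblast and stellate, 3 of 10 immune, 2 of 10 alpha, 2 of 4 delta, 1 of 2 PP, 2 of 10 duct, 1 of 12 acinar and 0 of 10 endothelial markers, and none of these lists had a marker lower by it. The mean log2 signal of the fibroblast and stellate markers was 8.66 to 9.78 on the replicating arrays against 8.09 to 8.32 on the quiescent arrays, and that of the immune markers 9.07 to 9.73 against 8.62 to 9.07. Other markers of these lists had ratios below 0, such as *Des* (-0.61) and *Tyrobp* (-0.71). All fibroblast and immune markers were well above background on at least 1 array of both groups. In such sorted populations, fewer cells of a type and less RNA per cell cannot be told apart.

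The 60-base probes of the 3 genes with the most distinct values are shown because the results turn on what these probes hybridise, together with the upstream probe of *Gpx4*, the gene whose probes disagreed. Positions are those of the array files on the rat build rn4. They place *Gpx1* on chr16_random, whereas its start on the build GRCr8, shown further below, lies on chr8.
Gpx1 probe (chr16_random:1046092-1046151, printed on 10 spots): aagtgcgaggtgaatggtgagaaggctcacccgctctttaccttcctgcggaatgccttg
Txnrd1 brighter probe (chr7:23065196-23065255): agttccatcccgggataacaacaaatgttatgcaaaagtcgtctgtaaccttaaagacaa
Nqo1 probe (chr19:37251727-37251786): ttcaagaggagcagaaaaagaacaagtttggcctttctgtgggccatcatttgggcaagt
Gpx4 upstream probe (chr7:11163817-11163876): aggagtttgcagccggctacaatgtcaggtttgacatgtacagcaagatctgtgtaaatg

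The starts of *Txnrd1*, *Prdx1*, *Nqo1* and *Gpx1* are shown to set the known NRF2 route beside the values below. Each is the 250 bases before a RefSeq start on GRCr8, read 5′ to 3′ along the gene. Capitals mark the core of the antioxidant response element, TGACNNNGC, or the GC box bound by Sp1-type factors, GGGCGG, each searched on both strands, so that a match may read as its reverse complement.
Txnrd1 (chr7:22755905-22756154, minus strand): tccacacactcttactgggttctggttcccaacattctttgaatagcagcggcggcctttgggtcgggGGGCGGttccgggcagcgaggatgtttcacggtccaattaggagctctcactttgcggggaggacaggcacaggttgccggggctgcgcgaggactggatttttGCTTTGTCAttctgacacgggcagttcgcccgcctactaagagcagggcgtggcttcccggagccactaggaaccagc
Prdx1 (chr5:135383656-135383905, plus strand): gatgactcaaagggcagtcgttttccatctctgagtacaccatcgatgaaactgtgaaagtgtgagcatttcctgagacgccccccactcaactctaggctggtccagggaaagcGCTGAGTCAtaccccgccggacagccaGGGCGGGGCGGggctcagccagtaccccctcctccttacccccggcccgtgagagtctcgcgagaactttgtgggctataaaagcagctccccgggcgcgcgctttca
Nqo1 (chr19:52220268-52220517, minus strand): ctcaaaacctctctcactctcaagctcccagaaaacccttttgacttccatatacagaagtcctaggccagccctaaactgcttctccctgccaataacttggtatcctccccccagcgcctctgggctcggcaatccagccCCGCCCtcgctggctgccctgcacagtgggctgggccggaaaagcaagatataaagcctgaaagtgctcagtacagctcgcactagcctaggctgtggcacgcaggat
Gpx1 (chr8:117905212-117905461, plus strand): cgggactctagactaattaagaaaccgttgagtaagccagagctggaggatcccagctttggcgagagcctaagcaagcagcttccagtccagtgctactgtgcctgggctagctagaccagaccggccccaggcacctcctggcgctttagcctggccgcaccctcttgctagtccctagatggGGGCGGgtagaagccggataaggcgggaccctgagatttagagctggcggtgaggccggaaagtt

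In windows of 300 bases, from 250 before to 50 after the start, the response element core was found at 3 of the 13 starts of the 10 genes, and in 12.06% of the 33469 RefSeq promoter windows. The matches were GCTTTGTCA in *Txnrd1*, 78 bases before 1 of its 2 starts, GCTGAGTCA in *Prdx1*, 135 bases before the start, and GCAGGGTCA in *Sod2*, 35 bases before it, all on the reverse strand. The GC box was found at 11 of the 13 starts, in all genes but *Cat*, and in 33.06% of all windows. No core match lay within the *Nqo1* or *Gpx1* window. Sequence further upstream was not searched, so elements there would be missed.

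Across the 10 genes, each represented by its brightest probe, none passed an adjusted p of 0.05 in limma with the preparation as a block. The same held for every probe on the array (0% called), and 4379 of 45598 probes had an unadjusted p under 0.05. *Gpx1*, *Txnrd1* and *Nqo1* were higher in replicating cells by the study's looser criterion, an unadjusted p of at most 0.05 with an absolute log2 ratio of at least 1, and no member was lower. Counted by probe these were 4 of 14, where the criterion took 4.44% of all probes as higher and 4.18% as lower. The adjusted p of the 14 probes lay between 0.475 and 0.874.

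The ratio was above 0 for 9 of the 10 genes, *Gpx4* being the exception, and for 20660 of all 45598 probes. It was above 0 for 8 genes under cyclic loess normalization, where *Sod1* was also below 0 at -0.09. The median ratio of the 10 genes was 0.74, against -0.07 for all probes. By preparation the median was 0.80, 1.20 and 0.02, and without preparation 2 the median of the genes was 0.40. The members' median thus lay close to 0 in preparation 3, and only *Gpx1*, *Txnrd1*, *Nqo1* and *Gpx3* kept ratios above 0.5 there. At the level of probes, 9 of 14 were higher in all 3 preparations (15.7% of all probes with a value on every array) and 1 was lower in all 3 (20.5%). All 3 replicating arrays lay above all 3 quiescent arrays for 5 probes of 4 genes (9.01%) and below them for none (7.10%). With the processed signal of the scanner software, only the brighter *Gpx1* probe, both *Txnrd1* probes and *Nqo1* were higher in all 3 preparations. The median ratio of all probes was -0.71 with that signal.

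**Figure D1:**
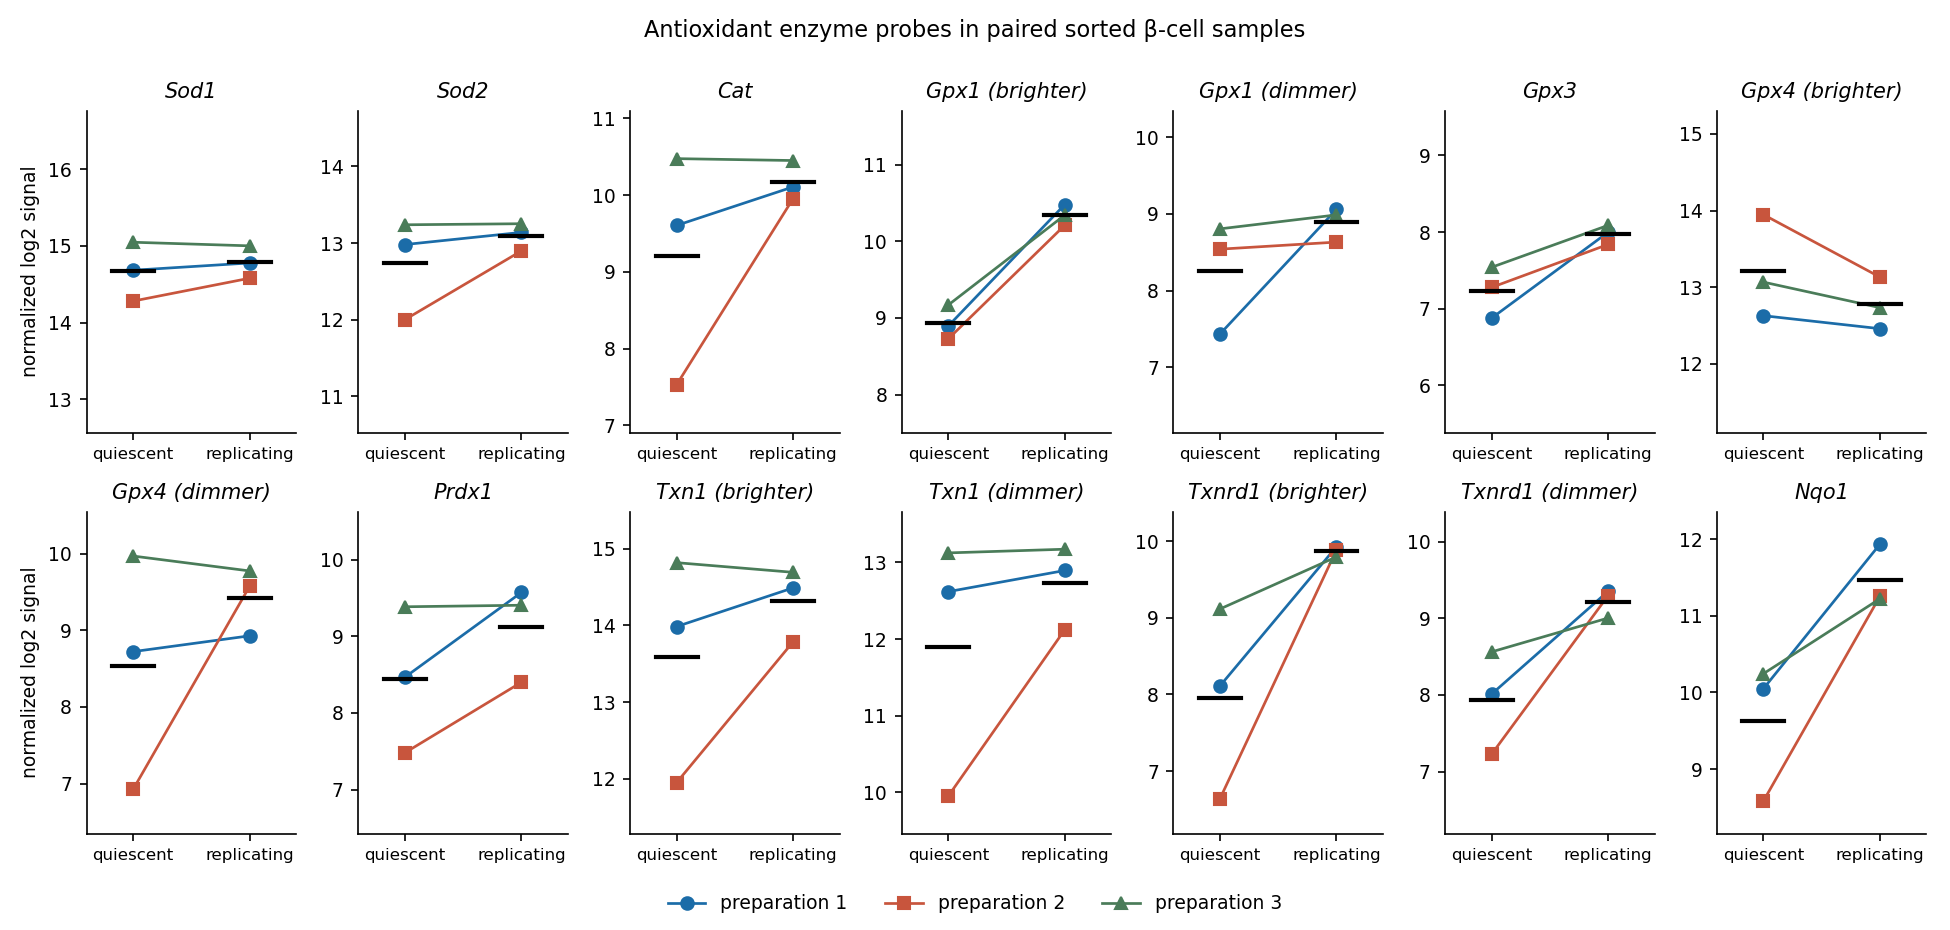
Normalized log2 signal of each of the 14 probes in the quiescent and replicating sample of each islet preparation (lines join the samples of 1 preparation, black bars are group means, n = 3). The vertical span is the same in every panel, and the groups are apart for *Gpx3*, *Nqo1*, both *Txnrd1* probes and the brighter *Gpx1* probe.

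*Sod1*, the cytosolic dismutase, read 14.78, 14.58 and 15.00 in the replicating samples of preparations 1 to 3 and 14.68, 14.28 and 15.05 in the quiescent samples. The groups overlapped and the fitted log2 ratio was 0.12 (95% interval -0.67 to 0.90, limma unadjusted p = 0.723, adjusted p = 0.874). *Sod2*, the mitochondrial dismutase, read 13.14, 12.90 and 13.25 against 12.98, 12.00 and 13.24. Only the quiescent sample of preparation 2 stood low, and the ratio was 0.36 (-0.53 to 1.24, limma adjusted p = 0.627). The third dismutase, the secreted *Sod3*, read 9.29, 8.31 and 8.76 in replicating against 8.08, 7.50 and 7.99 in quiescent cells, a ratio of 0.93 with no overlap of the groups (limma unadjusted p = 0.031, adjusted p = 0.475).

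Among the peroxide-removing enzymes, *Cat* read 10.11, 9.95 and 10.45 in replicating and 9.61, 7.53 and 10.48 in quiescent cells. Its ratio of 0.97 (-0.44 to 2.38, limma adjusted p = 0.491) rested on preparation 2, without which it was 0.24.

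*Gpx1*, the cytosolic glutathione peroxidase, read 10.48, 10.21 and 10.34 in replicating and 8.90, 8.73 and 9.17 in quiescent cells on its brighter probe. The groups were more than 1 log2 unit apart in every pair, with ratios of 1.58, 1.48 and 1.17. The fitted ratio was 1.41 (SE 0.31, 95% interval 0.62 to 2.20), a 2.66-fold difference (limma unadjusted p = 0.00575, adjusted p = 0.475). With the processed signal of the scanner software, the pairs gave 1.46, 0.71 and 1.66 on this probe. The dimmer *Gpx1* probe read 9.06, 8.63 and 8.99 against 7.44, 8.54 and 8.81. Its ratio reached 1.62 in preparation 1 and only 0.09 and 0.18 in the other pairs, for a fitted 0.63 (limma unadjusted p = 0.201, adjusted p = 0.519).

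*Gpx3*, the secreted glutathione peroxidase, read 8.0, 7.84 and 8.09 against 6.88, 7.28 and 7.54. The groups did not overlap, and the ratio of 0.74 (-0.08 to 1.57, limma unadjusted p = 0.0688) met neither limit of the criterion. It was 0.24 with 75th percentile scaling and 0.33 with the processed signal of the scanner software, where preparation 2 gave -0.98.

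*Gpx4*, which reduces lipid hydroperoxides in membranes, gave opposite signs on its probes. The brighter probe, which carries the polyadenylation hexamer AATAAA from base 42 and so lies at the 3′ end of the transcript (chr7:11162522-11162581 of rn4, minus strand), read 12.46, 13.13 and 12.73 in replicating and 12.63, 13.95 and 13.07 in quiescent cells. It was the single member probe lower in all 3 pairs, by a fitted -0.44 (-1.27 to 0.39, limma unadjusted p = 0.233, adjusted p = 0.540). The upstream probe read 8.93, 9.58 and 9.77 against 8.72, 6.93 and 9.97, and its ratio was 0.89 (limma adjusted p = 0.529), or 0.01 without preparation 2. Taking the median over both probes turned the ratio of the gene to 0.22.

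The difference between the *Gpx4* probes, 3′ minus upstream, was 2.96 to 3.56 on the replicating arrays and 3.91, 7.02 and 3.1 on the quiescent arrays. The value of 7.02, in preparation 2, lay at percentile 99.3 of the 2522 genes with probes at least 200 bases apart, against percentiles of 89.2 to 92.7 on the other 5 arrays. The median over those genes was -0.11 on that array and 0.13 to 0.41 on the others.

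**Figure D2:**
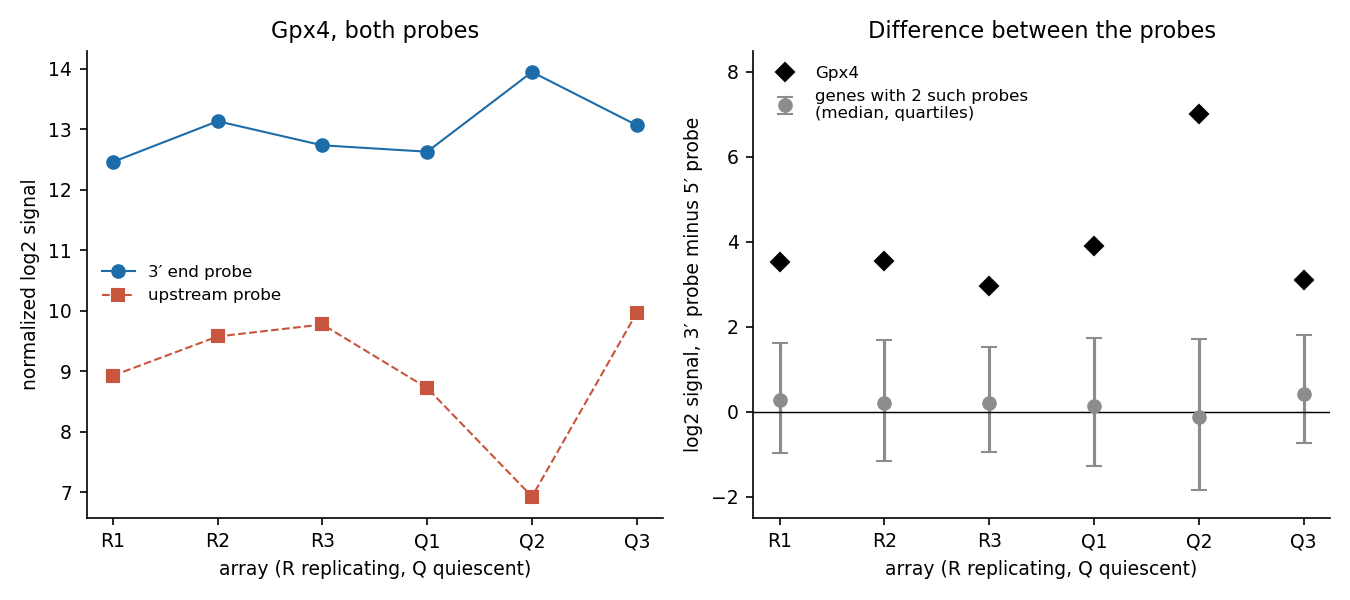
Left, normalized log2 signal of the 3′ end probe and the upstream probe of *Gpx4* on the 3 replicating (R) and 3 quiescent (Q) arrays. Right, the difference between the probes for *Gpx4* (diamonds) and the median with quartiles of the 2522 genes with such a pair (circles), where the quiescent array of preparation 2 stands apart at 7.02.

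*Prdx1*, a cytosolic peroxiredoxin, read 9.57, 8.40 and 9.40 in replicating and 8.47, 7.48 and 9.38 in quiescent cells. The pairs gave 1.10, 0.92 and 0.02, with the samples of preparation 3 close to equal, and the fitted ratio was 0.68 (-0.25 to 1.62, limma adjusted p = 0.483). The fitted ratio was 0.23 with 75th percentile scaling and 0.21 with the processed signal, where preparation 2 gave -0.41. *Txn1*, the electron donor of peroxiredoxins, read 12.89, 12.12 and 13.17 against 12.62, 9.95 and 13.12 on the probe printed on 10 spots. Its other probe, which is brighter, read 14.49, 13.79 and 14.69 against 13.98, 11.95 and 14.82. The probe on 10 spots is assigned to the RefSeq transcript of *Txn1*, with coordinates in the order of the minus strand, where the gene lies. The brighter probe is assigned to another sequence, with coordinates in the opposite order, and so matches the strand opposite to the transcript. Per the methods, the labelled material was made from double-stranded cDNA. As the brightest, this opposite-strand probe stood for *Txn1* in the counts and medians by gene. Fitted ratios were 0.83 and 0.74 (limma adjusted p = 0.502 and 0.505), but 0.16 and 0.19 without preparation 2. The low quiescent sample of preparation 2 thus carried the difference on both probes.

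*Txnrd1*, the cytosolic selenoenzyme that reduces thioredoxin, had the highest ratio of the members. Its brighter probe read 9.93, 9.88 and 9.79 in replicating and 8.11, 6.64 and 9.12 in quiescent cells. The replicating samples lay within 0.2 of each other while the quiescent samples spread over more than 2 log2 units. The ratios were 1.81, 3.24 and 0.68 and the fitted value 1.91 (SE 0.55, 95% interval 0.51 to 3.32), a 3.76-fold difference (limma unadjusted p = 0.0171, adjusted p = 0.475). The dimmer probe read 9.35, 9.30 and 9.0 against 8.01, 7.23 and 8.56, for a fitted ratio of 1.28 (SE 0.42, limma unadjusted p = 0.0273, adjusted p = 0.475). Both probes kept the groups apart. Without preparation 2 the ratios were 1.25 and 0.89.

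*Nqo1*, which reduces quinones by transferring a pair of electrons, read 11.93, 11.25 and 11.22 in replicating and 10.05, 8.59 and 10.24 in quiescent cells. The lowest replicating sample lay about 1 log2 unit above the highest quiescent sample. Ratios were 1.88, 2.67 and 0.98 and the fitted value 1.84 (SE 0.43, 95% interval 0.75 to 2.93), a 3.58-fold difference (limma unadjusted p = 0.00721, adjusted p = 0.475). Without preparation 2 it was 1.43.

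**Figure D3:**
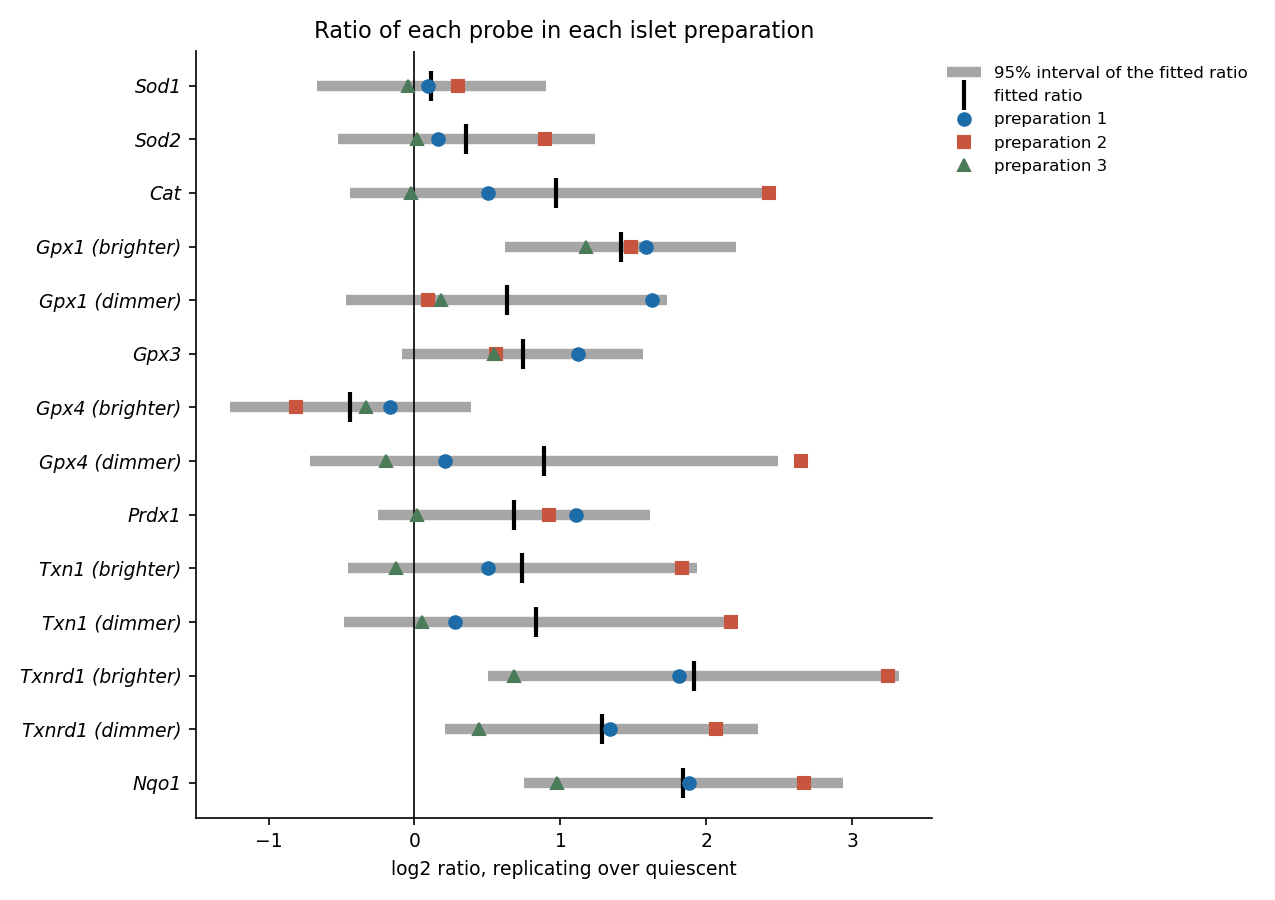
Log2 ratio of replicating over quiescent cells for each probe in each preparation (symbols), with the fitted ratio (black tick) and its 95% interval (grey bar). The intervals of the brighter *Gpx1* probe, both *Txnrd1* probes and *Nqo1* lie above 0, and preparation 3 gives the lowest ratio for most probes.

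Without preparation 1, where calls over all probes dropped from 2023 higher and 1905 lower to 518 and 63, *Gpx1*, *Txnrd1* and *Nqo1* were not called. Their unadjusted limma p were then 0.0685, 0.0737 and 0.0525, with ratios of 1.33, 1.96 and 1.82 against 1.41, 1.91 and 1.84 over all preparations. The 5 fibroblast and stellate and 3 immune markers past the criterion were higher in the replicating samples too, and their part in these ratios was not tested.

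The probes printed on 10 spots show the technical spread within an array. On 5 arrays the SD over the spots of the brighter *Gpx1* probe was 0.03 to 0.09, but on the quiescent array of preparation 2 it was 0.31. The highest SD was on that array for all 4 such probes, at 0.40 for the dimmer *Gpx1* probe, 0.31 for *Prdx1* and 0.24 for *Txn1*. Even there the normalized spots of the brighter *Gpx1* probe, at 8.25 to 9.22, lay below every spot of the replicating arrays, the lowest of which was 10.13. That gap depends on the normalization between arrays. Before it, the mean processed intensity of this probe in preparation 2 was 598.6 in quiescent and 624.4 in replicating cells. Most members have a single spot and so carry no such estimate.

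**Figure D4:**
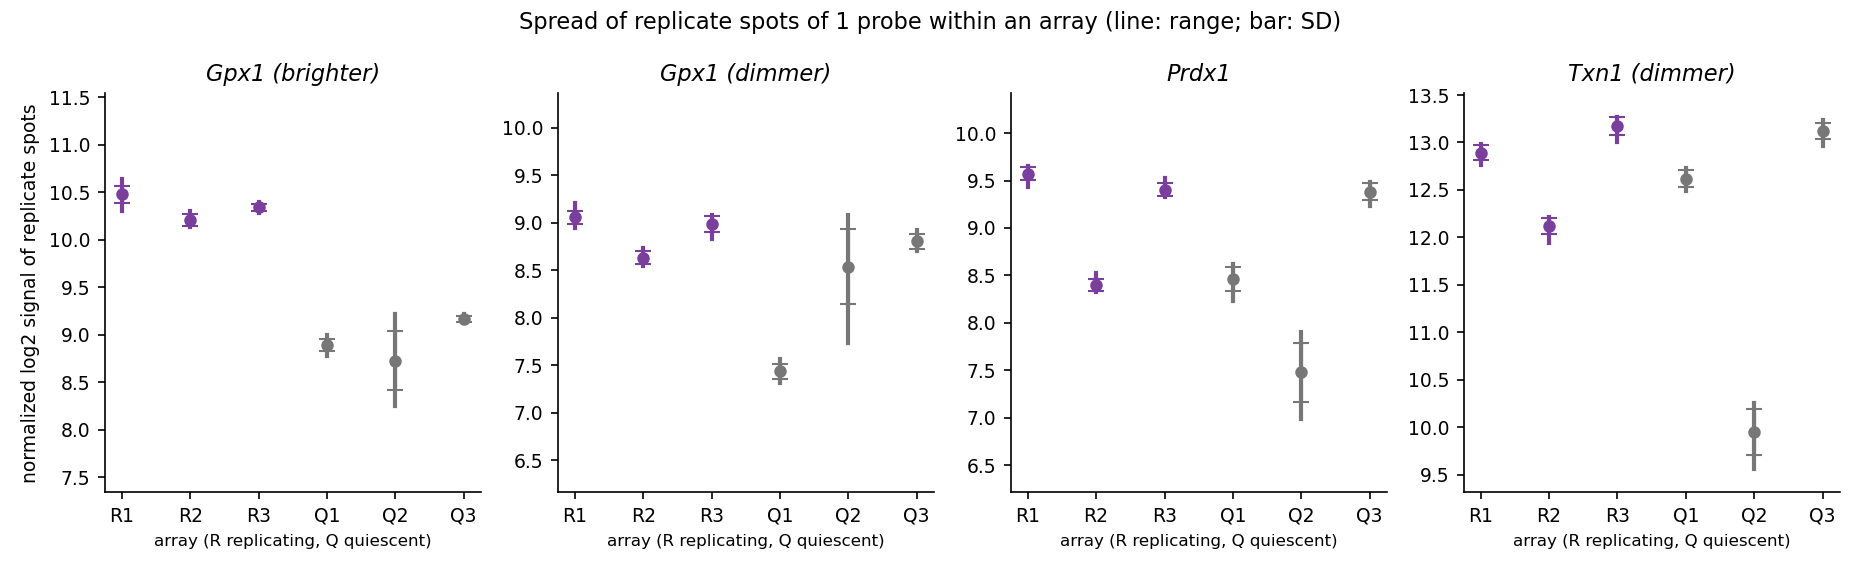
Mean, SD (capped bars) and range (lines) of the spots of 1 probe on each array, after outlier spots were left out, for the 4 member probes printed on 10 spots. The quiescent array of preparation 2 (Q2) has the widest spread in each panel, up to an SD of 0.40.

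Of 74 further redox genes listed, 72 were on the array. None passed the adjusted p in limma (7 had an unadjusted p under 0.05), and 6 were higher and 0 lower past the unadjusted criterion (4.44% and 4.18% of all probes). The ratio was above 0 for 49 of the 72, and for 20660 of all 45598 probes, and the median of the 72 was 0.28, or 0.40, 0.59 and -0.04 by preparation. *Prdx4*, the peroxiredoxin of the endoplasmic reticulum, had the highest ratio. It read 9.99, 9.72 and 9.84 in replicating against 6.97, 6.56 and 7.91 in quiescent cells, a ratio of 2.70 that was above 1.9 in every pair (limma adjusted p = 0.238, or 0.0107 with 75th percentile scaling and 0.0178 with cyclic loess).

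The others past the criterion were *Mafk*, a small Maf partner of NRF2 (1.95), *Txnip*, which binds and inhibits thioredoxin (1.57), the sestrin *Sesn3* (1.53), *Pgd*, an NADPH-producing enzyme of the pentose phosphate pathway (1.24), and *Trnau1ap*, which takes part in selenocysteine incorporation (1.22). Each was higher in all 3 pairs, with the lowest ratio in preparation 3, between 0.34 and 0.73. The lowest gene of each of 6 lists was the glutathione transferase *Gstm2* (-1.41), the cystine transporter *Slc7a11* (-1.10, with no value on the quiescent array of preparation 2), *Gpx8* (-0.76), *Sephs2* (-0.65), *Prdx6* (-0.64) and *Txnrd3* (-0.62), none past the criterion. In the lists with no gene past the criterion, the highest were *Sod3*, the carbonyl reductase *Cbr1* (1.65), the ferritin subunit *Fth1* (0.35) and *Gpx2* (0.29). In the NRF2 and metal storage lists the lowest were *Bach1*, a repressor at antioxidant response elements (-0.52), and *Mt3* (-0.19). These ratios are of the brightest probe of a gene. The other probe of *Bach1* gave the opposite sign, at 0.42. The other probes of *Cbr1*, *Slc7a11* and *Fth1* gave 0.25, -0.16 and 0.33.

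Of the 9 listed regulators of the NRF2 pathway, 1 (*Mafk*) was higher and 0 lower by the criterion. By the brightest probe of each, the ratio was above 0 for 7, with a median of 0.53, or 0.62, 1.60 and -0.27 by preparation. Further probes differed from the brightest, at -0.23 for *Cul3* (brightest 0.95) and 0.02 and 0.41 for *Sqstm1* (0.83). They gave 0.75 for *Mafg* (0.51) and 0.42 for *Bach1* (-0.52). *Nfe2l2*, which encodes NRF2, read 9.11, 8.17 and 8.62 in replicating cells and 7.70 and 8.97 in the quiescent cells of preparations 1 and 3, with no value on the quiescent array of preparation 2. Its pairs gave 1.41 and -0.35, opposite in sign.

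**Figure D5:**
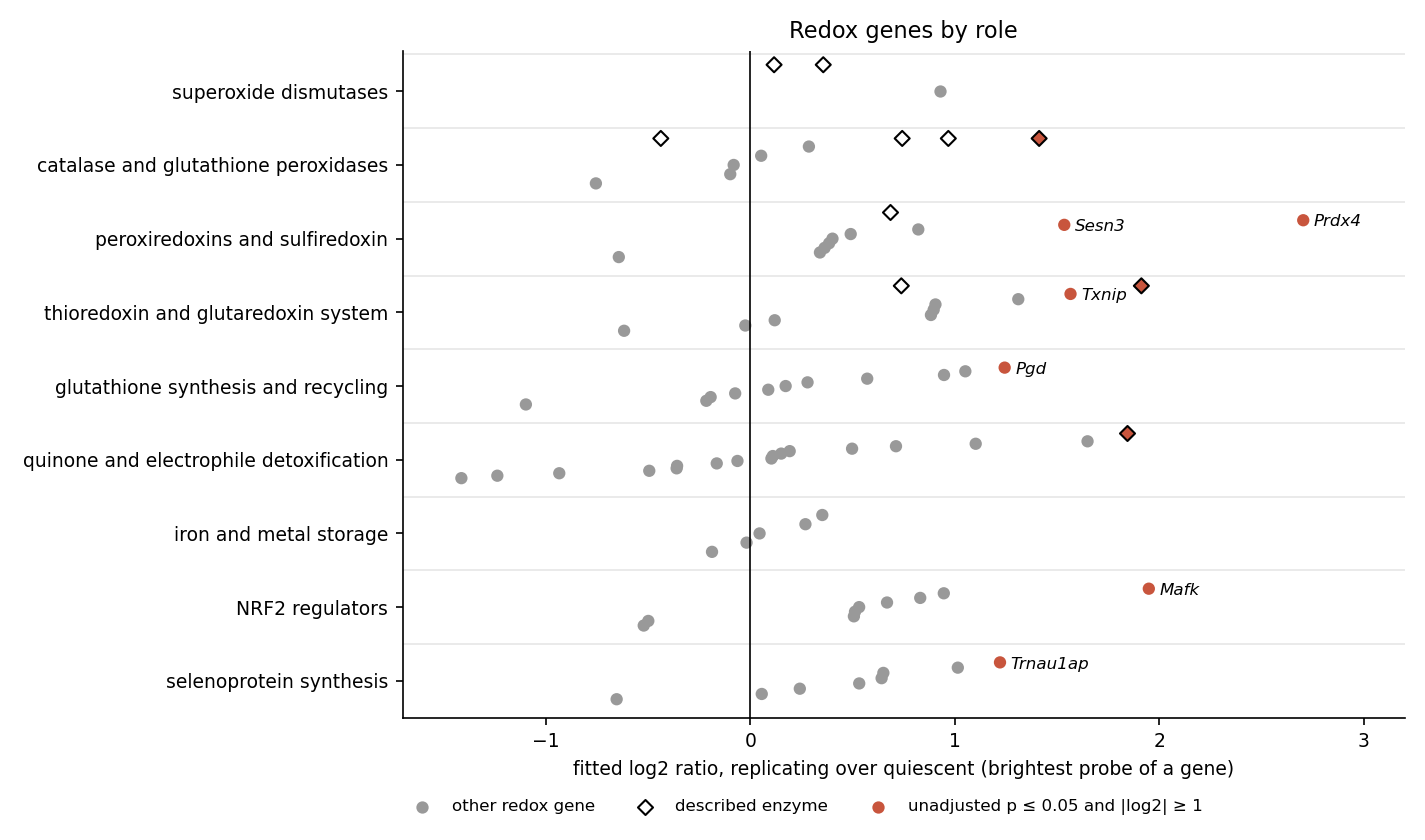
Fitted log2 ratio of each of the 72 other redox genes (circles) and of the 10 enzymes (diamonds), 1 row per role. Red marks an unadjusted p of at most 0.05 with an absolute ratio of at least 1, met by 6 circles and by *Gpx1*, *Txnrd1* and *Nqo1*, all to the right of 0.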

How the data were processed

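Per the labels and the study's methods, the authors amplified RNA with WTA2 and read the 1-colour arrays with Agilent Feature Extraction 10.7.3.1, whose deposited intensity of each spot is not normalized. The deposited log2 values had normexp and quantile normalization applied by the authors, and a recomputation at offset 50 differed from them by at most 0.000245. All 6 arrays lay on 1 slide. Here control spots were left out, outlier spots set missing and spots of a probe averaged, giving 45598 probes (44652 with a value on every array). Each was tested with limma 3.58.1 in R 4.3.3 (lmFit, eBayes), blocking on the preparation after the methods. The Benjamini-Hochberg method adjusted p over all probes, and the fit was checked on simulated data. The pairing comes from the titles and methods, and paired arrays deviated together from their group means with r of 0.0561, 0.242 and 0.258. The p-values measure how the ratio within a pair spread over the pooled preparations, with the variance moderated over all probes. The number of arrays limits the precision.

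Quantile normalization gives all arrays 1 distribution, so ratios are relative to it. The members and gene lists were chosen with earlier results of these data known. All members are named, and of the redox lists the genes past the criterion and the highest and lowest of each. Of the cell type marker lists only some counts, mean signals and genes are given. Alternatives covered background correction, scaling, dim probes, outliers, the block, the variance prior, the probe of a gene and each preparation left out. Probe positions along genes and the spread of spots were examined after the data were seen. All 10 symbols matched the RefSeq tables of GRCr8, which gave the promoters. Probe coordinates are rn4, per the file headers.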

Additional observations from a re-analysis of the deposited data

How the results depend on the processing

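No member passed the adjusted p under any alternative. The number of members past the unadjusted criterion was 3 (*Gpx1*, *Txnrd1* and *Nqo1*), also 3 with no replicate block, 2 with the processed signal of Feature Extraction (limma unadjusted p = 0.0872 for *Gpx1*) and 0 to 3 with 1 preparation left out. That of the other redox genes was 6, 8 with no replicate block, 2 with the processed signal and 1 to 17 with 1 preparation left out. The cause was not tested. Over all probes, the counts at adjusted p were 0 except 719 (75th percentile scaling), 204 (cyclic loess), 99 (no replicate block), 61 (variance trend) and 84 (without preparation 2), and *Prdx4* was the only listed redox gene among the first (adjusted p = 0.0107) and the second (adjusted p = 0.0178).

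Among the member ratios under alternatives, 179 kept their direction and side of p 0.05, 9 lost and 2 gained it. The ratio of *Sod1* reversed to -0.0906 with cyclic loess and that of *Gpx4* to 0.22 with the median over probes. *Gpx3* had limma unadjusted p = 0.0384 with cyclic loess and 0.0342 with no replicate block, but 0.648 with 75th percentile scaling and 0.665 with the processed signal, where its ratio was 0.24 and 0.33. The dimmer *Txnrd1* probe had limma unadjusted p = 0.119 with 75th percentile scaling, 0.172 with the processed signal, 0.0502 with a variance trend, and 0.131 and 0.0757 without preparations 1 and 2. The median of all probes moved to -0.39 with 75th percentile scaling and -0.71 with the processed signal, and the members' median lay 0.90 and 1.25 above it. Calls over all probes split into 2023 higher and 1905 lower, 1596 and 5862 with 75th percentile scaling, 662 and 3193 with the processed signal, 1879 and 878 with no replicate block, and 518 and 63, 1447 and 813, and 5112 and 5633 without preparations 1, 2 and 3. Fitting only probes well above background on all replicating or all quiescent arrays could not change the members' ratios. All member probes passed that filter, so their median of 0.74 there is no test of it. The background correction did move the ratios. The members' median was 0.85 at a normexp offset of 16 and 0.95 at an offset of 0, where the ratio of *Gpx3* was 1.07.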
